A study of Mus musculus with 8 samples.

Results

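Neat1 is the long non-coding RNA on which paraspeckles, a class of nuclear body, are built. The 18 regions described here are every peak that overlapped Neat1 or lay within 10 kb of it, out of 206501 peaks in the 4 deposited lists. Given the gene, they were taken by position alone, but the gene was chosen with earlier results of these data known. They came from RNA immunoprecipitation with anti-NONO antibody, or with IgG as the control. The starting material was nuclei isolated from the livers of 14-week-old C57BL/6 mice, wild type throughout. Mice were fasted (zeitgeber time 10), re-fed for 2 h (zeitgeber time 14) or re-fed for 10 h (zeitgeber time 22), so that feeding state and time of day differ together, and every group had first had food in the dark phase alone, under 12 h of light and 12 h of dark. The labels give no feeding state or time for the IgG library and its input. Each of the 8 libraries (4 immunoprecipitates, each with its own input) pooled 2 experiments and stood alone in its group. No difference between times, or between NONO and IgG, therefore has a replicate error, and none was tested.

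Neat1 is made as 2 isoforms from the same start. The short one ends at a polyadenylation signal, whereas the long one reads through that signal and is cut by RNase P just upstream of a tRNA-like structure, leaving a 3′ end that is protected by a triple helix of U-rich and A-rich tracts. The long isoform is the one required for paraspeckles, and the paired RNA-binding proteins NONO and SFPQ bind it. In human cells its middle part recruits them.

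In GENCODE M21 on GRCm38 (mm10), Neat1 (ENSMUSG00000092274.3) lies on the minus strand of chromosome 19 from 5824708 to 5845478, 20771 bases. The long isoform fills it as a single exon. Positions below are counted in bases from the 5′ end at 5845478. The short isoform ends at 5842307 and is annotated with exons at positions 3 to 554 and 721 to 3172. The first 3172 bases, with the intron between these exons, are treated below as the part common to both isoforms. The other 17599 bases belong to the long one alone. All peaks were made from both strands together.

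The sequences at the ends of the gene show where the peaks stopped. They are from the GENCODE M21 transcripts and run 5′ to 3′ on the minus strand. The first 86 bases of Neat1 (chr19:5845393-5845478) lay outside every peak of every list:

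Neat1 5′ end: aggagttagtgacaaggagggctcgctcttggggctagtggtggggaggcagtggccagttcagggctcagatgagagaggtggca

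Around the end of the short isoform (chr19:5842277-5842366), the capitals mark AATAAA, the polyadenylation hexamer. It begins 20 bases before the isoform's end, counting its own first base, and 30 bases of the long isoform follow. Of all windows of 90 bases along Neat1, 2.47% held this hexamer on the transcribed strand and 7.76% on either strand:

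Short isoform 3′ end: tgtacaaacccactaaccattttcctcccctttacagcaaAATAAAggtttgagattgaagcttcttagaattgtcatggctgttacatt

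At the end of the long isoform (chr19:5824708-5824857), the capitals mark the 83 bases outside the fasted peak, which include a U-rich tract and the A-rich tract of the final bases (U is written as T):

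Long isoform 3′ end: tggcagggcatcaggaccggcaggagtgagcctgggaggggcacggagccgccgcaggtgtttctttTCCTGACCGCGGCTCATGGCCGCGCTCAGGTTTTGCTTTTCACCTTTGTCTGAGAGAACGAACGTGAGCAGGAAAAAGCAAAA

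The small RNA gene directly behind it, Gm27702 (56 bases, chr19:5824652-5824707), holds the tRNA-like sequence. It was covered completely by a 2 h, a 10 h and an IgG peak and not at all in the fasted list:

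Gm27702: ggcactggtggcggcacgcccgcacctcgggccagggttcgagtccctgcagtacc

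NONO peaks covered nearly all of the long isoform when fasted and at 2 h, and less of it at 10 h. A single fasted peak ran from position 720 to position 20688 and covered 96.1% of the gene. A single 2 h peak began at position 1283, covered 93.8% of the gene and went on for 4446 bases past its 3′ end. At 10 h 4 peaks, from position 3141 on, covered 71.3%. The IgG library had 2 peaks on the gene, which together covered 93.8%, and the larger went on for 4197 bases past the 3′ end. All 4 lists shared 14728 bases, 70.9% of the gene.

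The part common to both isoforms set the libraries apart more than the rest of the gene did. Peaks covered 77.3% of it when fasted, 59.6% at 2 h, 1.01% (32 bases) at 10 h and 59.5% in IgG. The long-isoform-only part was covered to 99.5% (fasted), 100% (2 h), 84.0% (10 h) and 100% (IgG). The first exon of the spliced short transcript (positions 3 to 554) met no NONO peak at any time, while an IgG peak covered 84.8% of it. Of bases under a NONO peak in any list, 1200 were free of IgG, in 1 stretch from position 1736 to position 2935. IgG alone covered 633 bases. A base outside the peaks may still carry tags, since regions that missed the 2-fold limit over input are absent from the lists.

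**Figure D1:**
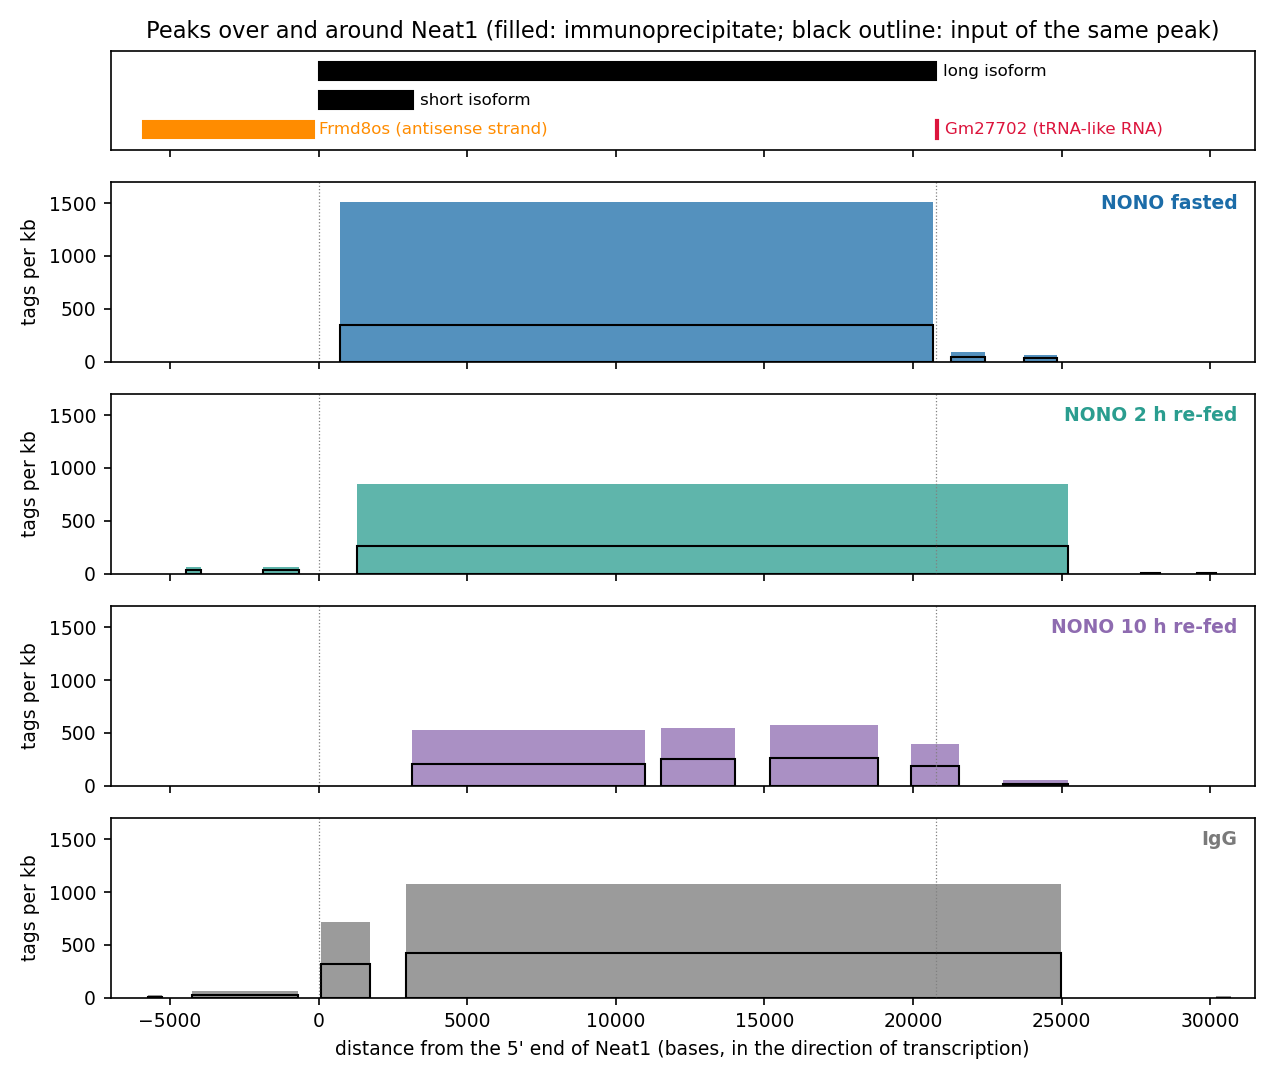
Peaks over and around Neat1 in the 4 lists, drawn by distance from its 5′ end in bases. Filled boxes give the mean immunoprecipitate tags per kb of each peak and black outlines the input of the same peak, both per 10000000 tags; dotted lines mark the ends of the gene. The fasted and 2 h lists each have 1 broad peak, the 10 h list has 4 lower peaks that begin at position 3141, and the IgG list has an additional peak of 721 tags per kb over the 5′ end.

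The immunoprecipitates held 21032764 (fasted), 21091048 (2 h), 18275033 (10 h) and 18995778 (IgG) tags, of which 11.6%, 26.0%, 17.3% and 53.2% lay in peaks. In normalised tags (tags per 10000000 tags of the immunoprecipitate), the Neat1 peaks together held 30057 when fasted, 20421 at 2 h, 8227 at 10 h and 24836 in IgG. The 95% exact Poisson intervals, which cover counting error only, were 29824 to 30293, 20229 to 20615, 8096 to 8360 and 24612 to 25061. The 3 NONO values descend from fasted to 10 h, with IgG between the fasted and the 2 h value. The share of the library on Neat1 was 0.301% (fasted), 0.204% (2 h), 0.0823% (10 h) and 0.248% (IgG). At 10 h the sum leaves out the parts of the gene between peaks and is to that extent too low.

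Density puts peaks of unequal width on a common scale. Neat1 had 1505 normalised tags per kb of peak when fasted, 853 at 2 h, 528 at 10 h and 1049 in IgG. The 10 h density was 0.351 times and the 2 h density 0.567 times the fasted one. The 2 h, 10 h and IgG widths include a stretch past the gene's 3′ end, whose tags the lists do not give apart. With that stretch set at the density of the densest separate peak there (92.3 tags per kb, a fasted one; an estimate chosen after the data were seen), 1027 (2 h), 551 (10 h) and 1255 (IgG) tags per kb remained for the gene itself.

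The input of the same peaks also differed. Per kb and per 10000000 tags, the fasted input held 348 tags, the 2 h input 258, the 10 h input 226 and the IgG input 418. The 10 h input density was 0.651 times and the 2 h input density 0.743 times the fasted one. The 2 h, 10 h and IgG widths again include the stretch past the 3′ end, which was not set apart for input. Summed over the peaks, the input held 6943 (fasted), 6183 (2 h), 3529 (10 h) and 9903 (IgG) tags per 10000000. By these sums the 2 h input was 0.890 times the fasted one. At 10 h the ratio was 0.508, over peaks that leave out part of the gene. More Neat1 in the nucleus and more nuclei with Neat1 cannot be told apart in these bulk libraries.

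Set against input, Neat1 tags were 4.33-fold when fasted, 3.30-fold at 2 h, 2.33-fold at 10 h and 2.51-fold in IgG (tags summed over the gene's peaks, divided by the authors' Control Tags). Fold over input thus descended over the 3 times along with density. Regions under 2-fold are absent from the lists, so each fold is for the covered part of the gene alone. That part was 96.1% (fasted), 93.8% (2 h), 71.3% (10 h) and 93.8% (IgG) of the gene. With whole libraries as the scale, the fasted fold was 1.73 times, the 2 h fold 1.32 times and the 10 h fold 0.930 times that of IgG.

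The comparison with IgG depends on 1 RNA. Rn7sk, which encodes the 7SK RNA, lay under 1 IgG peak that took 37.5% of that library, and the other IgG values are shares of a total that includes it. With immunoprecipitate and input both scaled to the tags outside each list's most tagged peak, Neat1 came to 4.34-fold (fasted), 3.31-fold (2 h), 2.33-fold (10 h) and 3.63-fold (IgG). The peak left out of the scale was that of Neat1 itself in the fasted and 2 h lists. It was a peak on chromosome 7 at 10 h and that of Rn7sk in IgG. On that scale the 2 h value lay below IgG, the reverse of the order with whole libraries, and the fasted value remained above it. The density in IgG was then 1678 tags per kb, above the 1510 of the fasted library. This scaling of both sides was added after the data were seen.

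**Figure D2:**
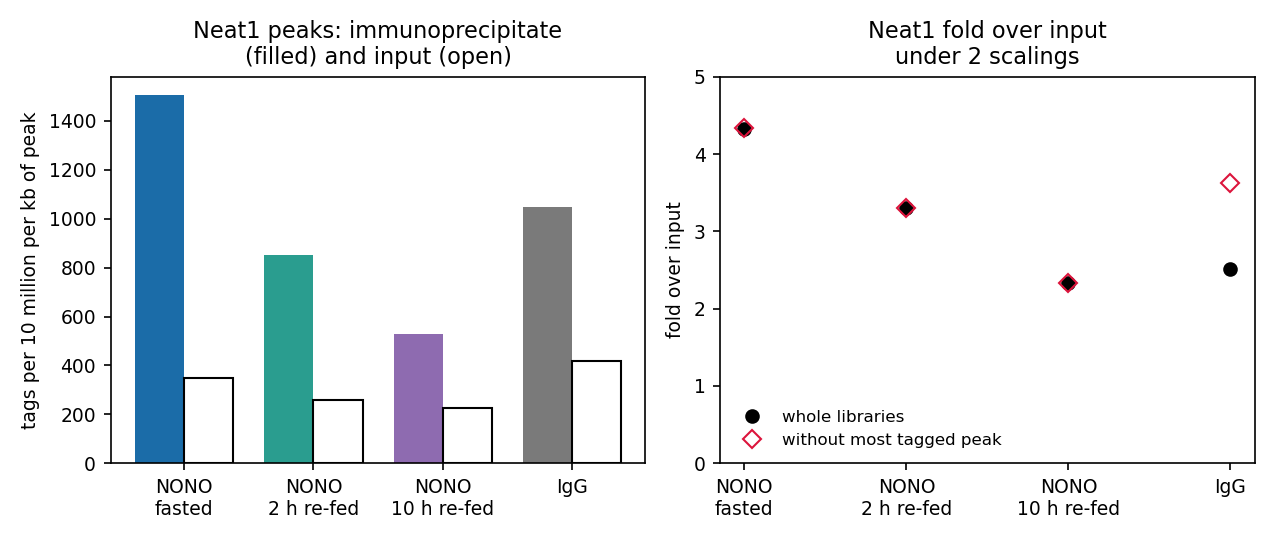
Left, tags per 10000000 per kb of Neat1 peak in each immunoprecipitate (filled bars) and its input (open bars). Right, fold over input with whole libraries as the scale (black circles) and without each list's most tagged peak (red diamonds). That peak is the Neat1 peak itself in the fasted and 2 h lists. There is 1 library per group and no error bar can be drawn. The NONO values descend over the 3 times under both scales (4.33, 3.30 and 2.33 with whole libraries), while the IgG value is 2.51 or 3.63.

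The 10 h signal was split into 4 peaks of unequal width along the long isoform. From 5′ to 3′ they held 4127, 1355, 2106 and 639 normalised tags. Their densities were 526 (positions 3141 to 10985), 548 (11522 to 13995), 577 (15175 to 18823) and 396 tags per kb (19929 to 21541, with 770 bases past the gene's end). The highest was 1.46 times the lowest, and input densities of 209, 250, 263 and 190 tags per kb followed the same order. The authors' folds were 2.51, 2.19, 2.19 and 2.08. Between the peaks lay gaps of 536, 1179 and 1105 bases. The gaps had GC contents of 51.3%, 47.2% and 46.9%, within the 44.9% to 52.9% of the 4 peaks.

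The IgG library alone had a peak at the very 5′ end, from position 87 to position 1735. It held 1189 normalised tags (721 per kb), 324 input tags per kb and 2.23-fold over input. The larger IgG peak held 23647 normalised tags, with 1073 per kb and 2.52-fold. The annotated small RNA genes inside the common part are Gm27533, Gm27505 and Gm28006. The IgG peak covered all 3, the fasted peak covered the first 2, and no 2 h or 10 h peak reached any of them. The GC content of Neat1 was 51.3% in the common part and 46.5% in the long-isoform-only part.

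The other 10 regions lay outside the gene and were sparse. Past the 3′ end were 6, of which 2 were fasted, 2 were 2 h, 1 was 10 h and 1 was IgG. The 2 fasted ones ran from 5823062 to 5824211 and from 5820650 to 5821750, with 106 and 72.7 normalised tags, at 6.13% and 4.39% of the gene's own density. The 10 h one held 108.3 normalised tags at 9.48% of that density. The 2 remaining at 2 h held 8.06 normalised tags each and the IgG one held 7.37. Before the 5′ end were 4, all over Frmd8os, a non-coding gene that starts close by on the other strand, with 34.1 and 83.0 normalised tags at 2 h and 12.6 and 223.2 in IgG. The smaller of these 2 h peaks and both IgG peaks also overlap Frmd8, a protein-coding gene. Malat1, the abundant nuclear RNA made from a gene nearby, met no peak in any list. The farthest region inside the limit of 10 kb was an IgG peak at 9.44 kb with 7.37 normalised tags, and the nearest outside was a 2 h peak at 10.4 kb with 7.11.

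Neat1 stood high in its lists by tags and by width, and less so by fold when set against all peaks. By tags its largest peak ranked 1 of 38209 (fasted), 1 of 61737 (2 h), 4 of 50609 (10 h) and 4 of 55946 (IgG). The most tagged 10 h peak, with 8657 normalised tags, lay on chromosome 7 from 111075761 to 111076639. The ranks by tags per kb were 4, 12, 63 and 30. A fold at least as high was found for 16.3% of all fasted peaks and 44.2% of all 2 h peaks. At 10 h the share was 64.3% to 93.9% for the 4 peaks, and in IgG 86.8% and 94.9%. Of the 8 peaks on the gene, the fasted and the 2 h peak reached 3-fold, which 44.4% of fasted and 53.9% of 2 h peaks did. None at 10 h or in IgG reached it, against 43.6% and 73.8% of all peaks. These shares are over peaks of every density, and fold tended to fall with density in each list. Among fasted peaks of 10 to 13.3 tags per kb, the fullest fold bin was 5.86 to 6.47 (579 peaks). Among fasted peaks of 100 to 133 tags per kb it was 2 to 2.21 (283 peaks). The fold of Neat1 was not ranked among peaks of like density.

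Each NONO peak on Neat1 was met by an IgG peak, 1 of 1 (fasted), 1 of 1 (2 h) and 4 of 4 (10 h). Over all peaks the shares were 33.7%, 39.3% and 39.5%. Among peaks of 5 kb or wider they were 90.6% (29 of 32), 98.2% (1062 of 1082) and 96.6% (113 of 117), so wide peaks met IgG in nearly all cases.

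Against those wide peaks Neat1 was set apart by its density. The other wide peaks had a median of 41.3 (fasted), 42.9 (2 h), 50.4 (10 h) and 33.7 (IgG) tags per kb. Neat1 ranked 1 of 32, 1 of 1082, 3 of 117 and 2 of 533 by tags per kb. Its input density ranked 1, 4, 2 and 1, and its fold ranked 7, 54, 19 and 351. The median fold of the other wide peaks was 2.44, 2.44 and 2.24 in order of time and 2.65 in IgG.

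**Figure D3:**
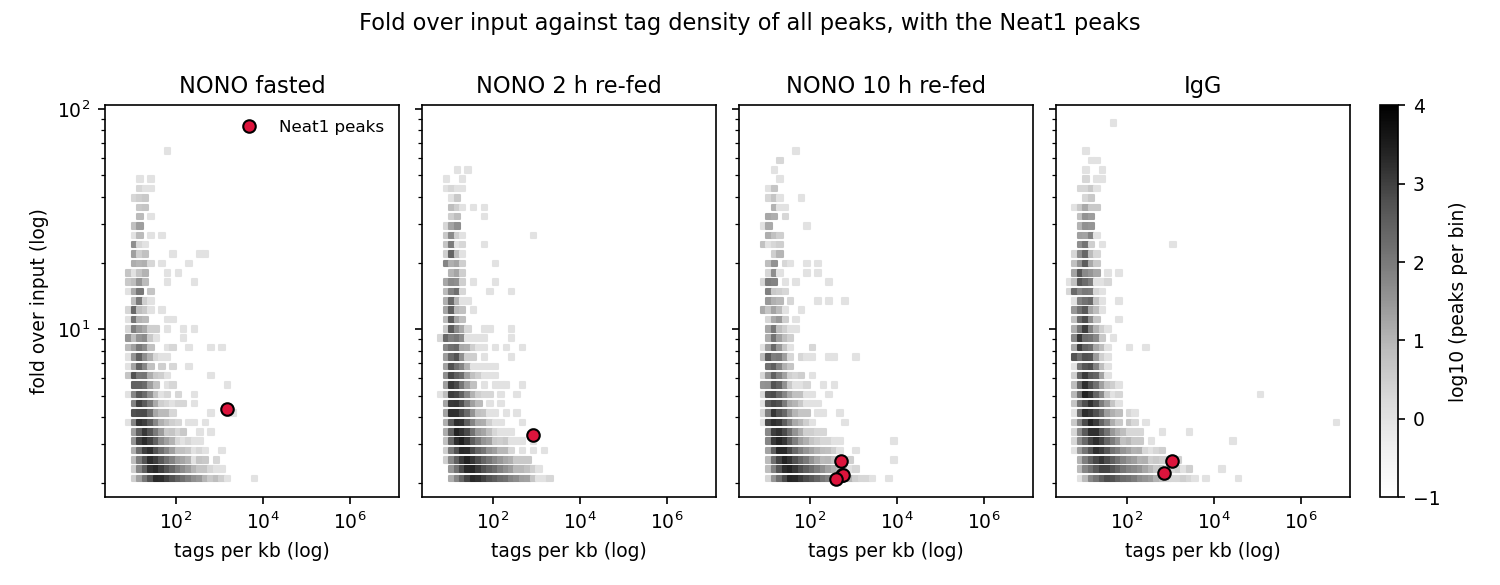
Fold over input against tags per kb for all peaks of each list, both on log axes, with darker squares for more peaks per bin and red circles for the peaks on Neat1. Neat1 lies far to the right in every list. Its fold is 4.33 in the fasted list, 3.30 at 2 h and from 2.08 to 2.51 at 10 h.

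Among the other listed nuclear RNAs, no NONO library had a signal near that of Neat1. Of 17 others found in the annotation, 3 (fasted), 3 (2 h), 6 (10 h) and 9 (IgG) carried a peak. The shares over all annotated non-coding genes were 6.38%, 9.92%, 8.57% and 9.26%, without pseudogenes. The summed normalised tags of the listed RNAs were 482 (fasted), 1132 (2 h) and 883 (10 h). Kcnq1ot1, the imprinted antisense RNA of the Kcnq1 locus, held most of these, with 417, 995 and 618 beside 808 in IgG. Airn, another imprinted antisense RNA, held 15.7, 40.4 and 77.1 beside 110.0 in IgG. Firre, a nuclear RNA of the X chromosome, held 48.5, 95.7 and 52.5 beside 43.1. Tug1 (83.2), Snhg11 (36.1) and Rian (16.4) had NONO peaks only in the 10 h list. The IgG list held 3748430 normalised tags over Rn7sk, 81662 over Rpph1 (the RNase P RNA) and 12954 over Rmrp (the RNase MRP RNA), and none of these had a NONO peak. Snhg11 (203.7), Gas5 (107.9) and Snhg1 (22.1) made up the rest of IgG.

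**Figure D4:**
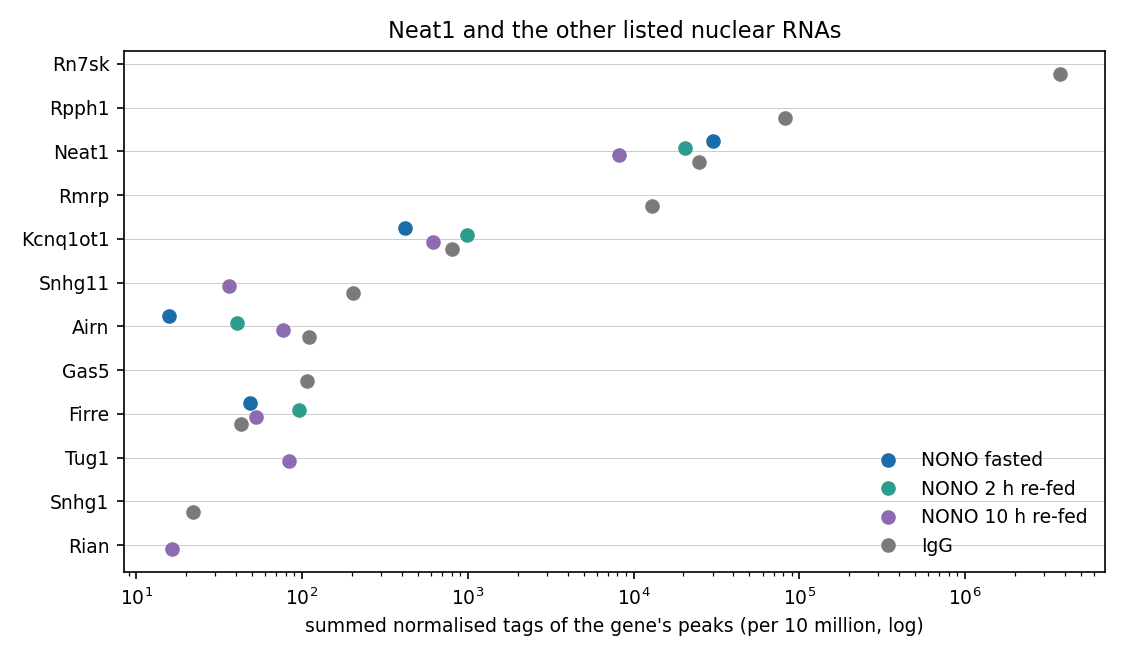
Summed normalised tags (per 10000000, log axis) of the peaks on Neat1 and on each other listed nuclear RNA with a peak, by library. A missing point means no peak in that list. Neat1 is the one RNA above 1000 normalised tags in a NONO library, and Rn7sk, Rpph1 and Rmrp appear only in IgG.

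Genes of paraspeckle proteins followed the order of protein-coding genes at large over the 3 times, which is not that of Neat1. Of 20 listed, 19 (fasted), 20 (2 h), 20 (10 h) and 20 (IgG) carried a peak, where 28.4%, 33.9%, 32.7% and 34.6% of all protein-coding genes did. Their medians were 97.2, 403, 196 and 227 normalised tags per gene. For the 9677 protein-coding genes that met at least 1 peak the medians were 17.6, 35.5, 31.8 and 24.7, also lowest in the fasted and highest in the 2 h library. Sfpq, the partner of NONO, held 44.2 (fasted), 2861 (2 h) and 1468 (10 h) normalised tags beside 53.7 in IgG, at 2.05-fold, 2.27-fold and 2.08-fold over input, and 2.31-fold in IgG. Pspc1, another protein of the same family, held 156, 1277 and 594 beside 626 in IgG. Matr3, a nuclear matrix RNA-binding protein, held 390, 1224 and 599 beside 377, and Taf15, an RNA-binding protein, held 688, 908 and 731 beside 436. The highest value of each of these 4 was at 2 h, whereas that of Neat1 was in the fasted library. Nono itself held 102, 144 and 146 beside 34.2 in IgG.

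The genes nearest to Neat1 in profile were Rxra, Tdo2, Tox, Vps13a and Ppara. Likeness was the distance between summed log2 tags over the 4 libraries, each gene centred on its own mean, among 635 genes. Distances were 0.84, 1.07, 1.11, 1.20 and 1.20 log2 units, against a median of 2.30. Tdo2, the first enzyme of tryptophan breakdown, held 1992 (fasted), 909 (2 h) and 236 (10 h) normalised tags beside 653 in IgG. Rxra, a nuclear receptor subunit, held 864, 1322 and 386 beside 1203. Of these 5, Tdo2 and Tox alone had their highest value in the fasted library, as Neat1 did. Over 4 libraries such a likeness is a description only.

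Peaks over hepatocyte markers were counted beside the tissue label. A peak needs at least 2-fold over the library's own input, so expression of a marker cannot be read from it. The counts therefore cannot check the tissue. Of 9 found in the annotation, 2 (fasted), 3 (2 h), 6 (10 h) and 7 (IgG) carried a peak. The shares over all protein-coding genes were 28.4%, 33.9%, 32.7% and 34.6%, near that of the hepatocyte markers in the fasted and 2 h lists. The same shares are the background for the other cell types below. Cps1 held the most tags of the 9 in every list, and the fasted and 2 h lists held none over Alb, Ttr or Apoa1. Of other cell types, 0 of 4 cholangiocyte markers had a peak in any list, and 2, 2, 3 and 2 of 5 Kupffer cell markers and 2, 2, 3 and 2 of 4 endothelial markers did. Stellate cell markers held 2431 normalised tags in IgG against 47.1, 40.8 and 82.1 in the NONO lists, with 2081 of the IgG tags over Reln, and their part in the NONO and IgG comparison was not tested.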

How the data were processed

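RNA from anti-NONO and IgG immunoprecipitates of liver nuclei, and from their inputs, was sequenced from a stranded total RNA kit, per the labels' protocols. FastQC 0.11.2, STAR 2.4.0k and HOMER with mm10 are named in the submitters' processing notes. Peaks were called with HOMER in histone style, with a peak size of 500 bp, both strands together and at least 2-fold over the library's own input, per the file headers, from a tag threshold of 11 (8 in IgG).

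The deposited signal is tags per 10000000 library tags. Deposited tag counts are whole numbers in the 10 h and IgG lists, where Control Tags were scaled to the immunoprecipitate; in the fasted and 2 h lists the authors scaled the immunoprecipitate to the input. The deposited fold is the ratio of the 2 scaled tags, and the deposited score was not printed. Input per 10000000 tags was computed from Control Tags, with the fasted and 2 h input library sizes recovered from that scaling. Immunoprecipitates held 18275033 to 21091048 tags. Reads were not used here.

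A peak was taken to cover the bases after its start up to its end, and to belong to a gene it overlapped by 1 bp. Gene sums take whole peaks, and overlapping genes share them. Since each group has 1 library, there are no tests. Named genes were those of the fixed nuclear RNA list, the 4 with most tags of the fixed paraspeckle protein list, and the 5 most like Neat1 among genes with at least 1000 normalised tags in some list and peaks in at least 3; Nono, as the gene of the precipitated protein, was added after its values were seen. The members and lists were chosen with earlier results of these data known. Overlap sums were tested on simulated data. The work ran in Python 3.11.15 with scipy 1.17.1, pandas 2.3.3 and numpy 2.4.6.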

Additional observations from a re-analysis of the deposited data

How the results depend on the processing

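Order between libraries was the point most open to processing. The sum over peaks within 10 kb was 25079 normalised tags in IgG and moved by less than the counting error in the NONO lists. Taking only the part of each peak inside the gene, in proportion to length, gave 16628 (2 h), 7922 (10 h) and 20332 (IgG) normalised tags and left the fasted sum as it was. Per 10000000 tags inside called peaks, Neat1 held 259375 (fasted), 78399 (2 h), 47506 (10 h) and 46667 (IgG), with IgG lowest. With the Rn7sk peak left out of that total, an alternative chosen after the data were seen, IgG held 157832 and stood above the 2 h and 10 h values. Outside the most tagged peak the IgG sum was 39728 and its density 1678 per kb, both above the fasted values; its fold was 4.01 with input left as deposited and 3.63 with both sides rescaled. Per kb of gene the densities were 1447, 983, 396 and 1196 in the order fasted, 2 h, 10 h and IgG, and with the part past the 3′ end set at the densest flanking peak they were 1027 (2 h), 551 (10 h) and 1255 (IgG). The median of the deposited folds was 2.19 at 10 h and 2.375 in IgG. By tags per kb the ranks of the largest Neat1 peak were 4, 12, 63 and 30. With 50% of a peak as the overlap that counts, 20.8% of fasted, 21.6% of 2 h and 24.7% of 10 h peaks met IgG. At 3-fold the fasted and 2 h values were unaltered, and no value could be had at 10 h or in IgG. By density per kb of gene, not centred, 0 of the 5 genes most like Neat1 were the same. In the settings above that give a value for each NONO library, the fasted sum, density and fold were highest and the 10 h ones lowest. No paired analysis was possible because no group holds more than 1 library. Depth limits the small flanking peaks, of which several rest on under 25 tags.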
